A study of Rattus norvegicus with 11 samples.

Results

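A set of 5 rat genes of cardiac calcium cycling and its beta-1 adrenergic control was followed across 11 heart RNA libraries. They are Atp2a2 (ENSRNOG00000001285), Pln (ENSRNOG00000000413), Ryr2 (ENSRNOG00000017060), Casq2 (ENSRNOG00000016243) and Adrb1 (ENSRNOG00000017002). The members were set by a list of Ensembl IDs with their symbols, 5 of the 32883 gene IDs in the deposited count table, which itself pairs no ID with a symbol. For each ID the gene model length was taken, the length implied by a gene's count and its FPKM. The lengths were 7097 bases for Atp2a2, 2254 for Pln, 14817 for Ryr2, 2529 for Casq2 and 1401 for Adrb1. The Ryr2 value fits the great length of this gene's transcript. It is also a whole 4939 codons, so this model too may hold coding sequence alone. The Adrb1 model is short, a whole 467 codons and 46.5% of the RefSeq gene span of 3012 bases, which fits a coding sequence rather than a whole transcript. The lengths of Atp2a2, Pln and Casq2 were set against no expected value, so they do not check these IDs. No ID was dropped. All 5 genes passed the filter on low counts, which kept 14979 genes for testing.

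Each heartbeat of a ventricular muscle cell is driven by a rise and fall of calcium. Ryr2 encodes the ryanodine receptor, the channel through which the sarcoplasmic reticulum releases calcium, and Casq2 encodes calsequestrin, the protein that holds calcium inside that store. Atp2a2 encodes SERCA2, the pump that returns calcium to the store, and Pln encodes phospholamban, a small membrane protein that inhibits the pump until it is phosphorylated. Adrb1 encodes the beta-1 adrenergic receptor, which raises cyclic AMP and so leads to phosphorylation of phospholamban and the ryanodine receptor. The ratio of phospholamban to SERCA2 is a common index of how far the pump is restrained, and protein levels and phosphorylation were not measured here.

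The tissue was cardiac tissue of Sprague Dawley rats. The sex, age and part of the heart are not given in the labels. The sample titles give neither the order of the treatments nor the time of sampling after isoproterenol. Drug or exercise therefore cannot be told apart from any difference in that time. The control group had 2 libraries, numbered 95 and 115. Isoproterenol, which stimulates beta-adrenergic receptors and is given to rodents to bring about heart failure, was dosed at 5 mg/kg per day over 10 days in every other group. Its own group comprised libraries 79, 98 and 119 (3 libraries). Libraries 78, 133 and 143 (3 libraries) formed the canagliflozin group, whose rats additionally took 3 mg/kg of canagliflozin, an inhibitor of the renal glucose transporter SGLT2, daily during 4 weeks. Libraries 57, 103 and 113 (3 libraries) formed the exercise group, whose rats, also given isoproterenol, were exercised 60 min daily during 4 weeks. The series title speaks of canagliflozin combined with exercise, but the exercise labels do not mention the drug, so whether these rats received it cannot be told. Isoproterenol acts on the receptor that Adrb1 encodes, and all groups except the control shared it. No label states that each library is a different animal, and the p-values therefore describe the spread between these libraries, which may be technical.

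The promoter windows of Atp2a2 and Pln are shown because these genes form the ratio examined here. Pearson's r between their log2 levels was 0.632 over the 11 libraries. It was 0.949 in 7 of them, a set chosen after the data had been seen. Each window runs from 250 bases before to 50 bases after the start that the RefSeq promoter table uses for the gene in GRCr8, 5′ to 3′ on the plus strand. The Atp2a2 window is chr12:39733269-39733568 and the Pln window is chr20:33172244-33172543, and the start used for Pln lies inside the RefSeq span of the gene, part of which is upstream of this window. Capitals mark 2 kinds of motif on either strand, the CCAAT box (letters CCAAT) and the GC box (letters GGGCGG).
Atp2a2: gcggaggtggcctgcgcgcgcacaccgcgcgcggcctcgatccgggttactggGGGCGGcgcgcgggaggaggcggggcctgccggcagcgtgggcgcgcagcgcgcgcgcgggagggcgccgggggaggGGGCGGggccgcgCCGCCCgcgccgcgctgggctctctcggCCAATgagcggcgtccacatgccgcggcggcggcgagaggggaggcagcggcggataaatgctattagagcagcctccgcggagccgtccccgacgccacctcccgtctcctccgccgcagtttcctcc
Pln: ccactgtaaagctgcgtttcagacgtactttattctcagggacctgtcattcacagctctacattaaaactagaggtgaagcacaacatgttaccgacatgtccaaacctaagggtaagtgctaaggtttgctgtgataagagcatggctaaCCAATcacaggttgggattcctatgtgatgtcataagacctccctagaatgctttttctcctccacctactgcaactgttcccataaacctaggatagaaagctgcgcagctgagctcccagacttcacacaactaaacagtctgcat
The Atp2a2 window held 3 GC boxes and 1 CCAAT box. The Pln window held no GC box and 1 CCAAT box. Of 33469 RefSeq promoters of 300 bases, 37.5% held a CCAAT box and 33.1% a GC box. The GC content was 79% for Atp2a2 and 45% for Pln, beside a median of 51.7% over all promoters. Ryr2 (73%, with 3 GC boxes of which a pair overlap) and Adrb1 (70.7%, with 1 CCAAT box) were GC-rich like Atp2a2, while Casq2 (47.7%, with neither motif) was closer to Pln. The core of the cyclic AMP response element (letters TGACG), present in 21.2% of promoters, was found once in the Adrb1 window and in no other of the 5. None of the 5 windows held TATAAA (14.2% of promoters) or AGATAA (11.6%). These matches describe letters in a window and say nothing of binding.

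Total counts were 14742164 to 25034831 per library. Libraries 57, 78, 95 and 98, 1 in each group, stood apart from the other 7. On the first principal component of log2 expression, made without the 5 genes and holding 56.2% of the variance, library 95 scored 203.6. Libraries 98, 57 and 78 scored 46.4, 15.5 and 8.19, and the other 7 scored between -63.2 and -25.3. The 4 were thus graded, with library 95 far from the rest, and were set apart by a score above 0. Results are therefore given with all libraries and also without these 4, an alternative chosen after the data had been seen, in which the control group is library 115 alone. The 4 were also the lowest of their group in Atp2a2, Ryr2, Casq2 and Adrb1, and in 3 of 4 groups in Pln. Leaving them out thus narrows the spread, and the SE and p of that fit do not allow for this choice. In that fit every SE and p against the control takes its spread from the other groups, since 1 library has none of its own, and assumes that library 115 varies like them. In bulk tissue, fewer cells of a type and less RNA per cell cannot be told apart. Counts for all 5 genes, among them the muscle genes Ryr2, Casq2 and Pln, were found in every library. Marker genes of other cell types could not be matched to the IDs and were not analysed here.

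**Figure D1:**
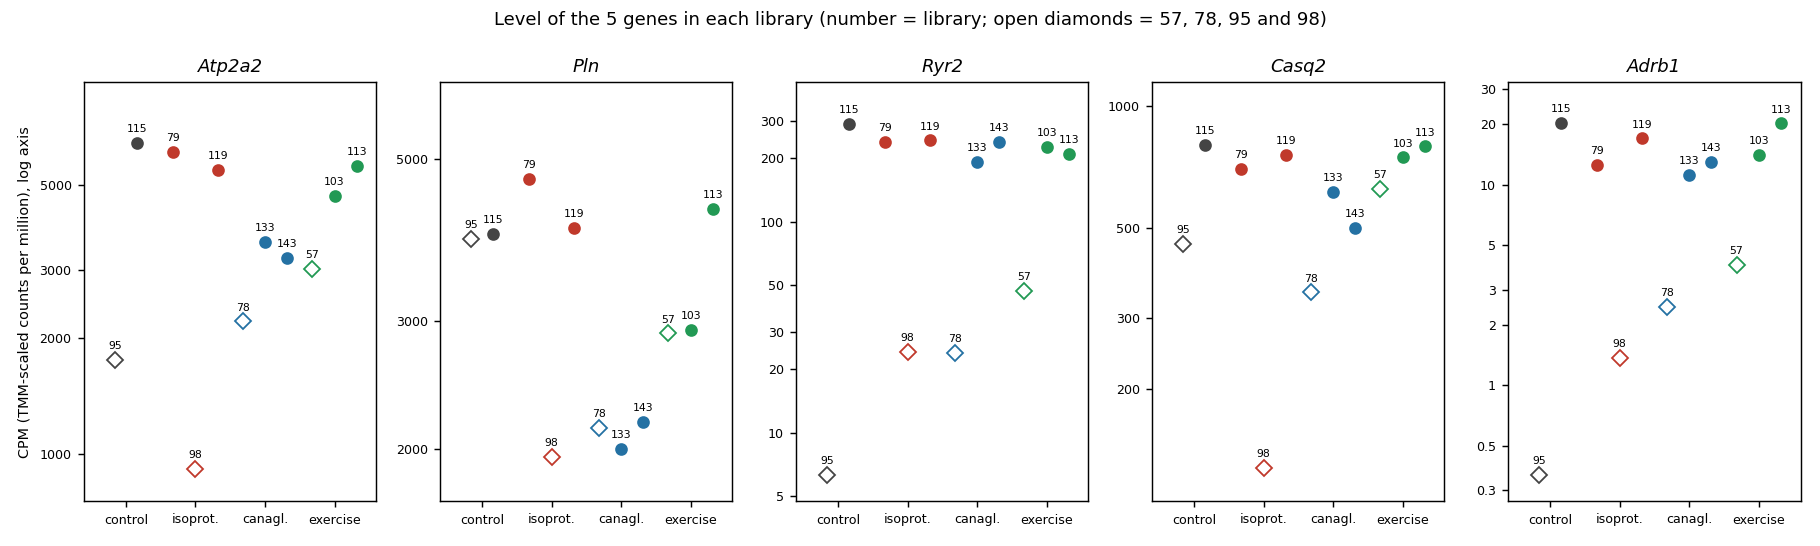
Level of each gene in each library, as CPM on a log axis (counts scaled to a common TMM-adjusted library total), by group; each point is 1 library with its number, and open diamonds are libraries 57, 78, 95 and 98. Ryr2 and Adrb1 lie lower in the 4 diamonds than in every filled circle, with Ryr2 between 6.33 and 46.9 in the diamonds and between 192 and 289.9 in the circles.

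The pump gene Atp2a2 varied 7.03-fold between libraries, with no group apart from the others. In the control group it stood at 1755 CPM in library 95 and 6438 in library 115. In the isoproterenol group it was 6098 in library 79, 916 in library 98 and 5469 in library 119. In the canagliflozin group it was 2209.7 in library 78, 3549.9 in library 133 and 3233 in library 143. In the exercise group it was 3022 in library 57, 4682 in library 103 and 5593 in library 113. Every group's lowest library was one of the 4 that stood apart, and all 4 groups overlapped. The group means were 4096 ± 3311 (SD, n = 2) in the control, 4161 ± 2828 (n = 3) in the isoproterenol, 2997.5 ± 700.4 (n = 3) in the canagliflozin and 4432 ± 1303 (n = 3) in the exercise group.

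Pln, the inhibitor of the pump, was the steadiest of the 5, with a 2.41-fold range. In the control group it was 3883 CPM in library 95 and 3953 in library 115. In the isoproterenol group it was 4699 in library 79, 1949.97 in library 98 and 4022 in library 119. Library 98 lay below both controls and the other isoproterenol libraries above them. In the canagliflozin group Pln was 2136 in library 78, 1998 in library 133 and 2179 in library 143. In the exercise group it was 2883 in library 57, 2911 in library 103 and 4278 in library 113. The canagliflozin libraries lay within a narrow band below every control and every exercise library, and library 98 was the one isoproterenol library under that band. The means were 3918 ± 49.1 (SD, n = 2), 3557 ± 1432 (n = 3), 2104 ± 94.7 (n = 3) and 3357 ± 797 (n = 3) in the control, isoproterenol, canagliflozin and exercise groups.

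Ryr2, the release channel, varied 45.8-fold. In the control group it was 6.33 CPM in library 95, from 53 counts (exact Poisson interval 39.7 to 69.3), and 289.9 in library 115. In the isoproterenol group it was 238 in library 79, 24.1 in library 98 and 242 in library 119. In the canagliflozin group it was 23.8 in library 78, 192 in library 133 and 239 in library 143. In the exercise group it was 46.9 in library 57, 225 in library 103 and 209.8 in library 113. Within each group 1 library was far below the rest, and outside those 4 the levels differed little. The means were 148 ± 201 (SD, n = 2), 168 ± 125 (n = 3), 152 ± 113 (n = 3) and 161 ± 98.8 (n = 3) in the same order of groups.

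Casq2, the calcium buffer of the store, varied 6.28-fold. In the control group it was 457 CPM in library 95 and 802 in library 115. In the isoproterenol group it was 699 in library 79, 128 in library 98 and 758 in library 119. Library 98 was by far the lowest of the 11. In the canagliflozin group Casq2 was 347 in library 78, 612 in library 133 and 499 in library 143. In the exercise group it was 623 in library 57, 746 in library 103 and 794 in library 113. Every exercise library lay above every canagliflozin library, by a narrow margin between libraries 57 and 133. The means were 629 ± 244 (SD, n = 2), 528 ± 348 (n = 3), 486 ± 133 (n = 3) and 721 ± 88.1 (n = 3).

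Adrb1, the beta-1 receptor gene, varied the most, 56.7-fold, between the 2 control libraries themselves. Library 95 held 3 counts (exact Poisson interval 0.619 to 8.77), or 0.358 CPM, and library 115 held 316 counts, or 20.3 CPM. The exact counting interval of that ratio was 19.2 to 276, which covers counting error only. In the isoproterenol group Adrb1 was 12.5 CPM in library 79, 1.37 in library 98 and 17.0 in library 119. The canagliflozin libraries held 2.46 (library 78), 11.2 (library 133) and 12.98 CPM (library 143). The exercise libraries held 3.99 (library 57), 14.1 (library 103) and 20.2 CPM (library 113). As for Ryr2, the lowest library of each group was the one that stood apart, and the other 7 libraries lay between 11.2 and 20.3 CPM. The means were 10.3 ± 14.1 (SD, n = 2), 10.3 ± 8.03 (n = 3), 8.88 ± 5.63 (n = 3) and 12.8 ± 8.17 (n = 3).

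The 4 libraries that stood apart were not lowered alike in the 5 genes. Ryr2 was 4.63 to 45.8 times lower there than the mean of the other libraries of the same group, and Adrb1 4.30 to 56.7 times lower. For Atp2a2 that factor was 1.53 to 6.31 and for Casq2 1.24 to 5.70. All 4 genes were below the other libraries in 4 of 4 groups. Pln was lower in 3 of 4 groups, and its factor ran from 0.978 in the canagliflozin group to 2.24 in the isoproterenol group. The library with the largest factor also differed between genes. Atp2a2 and Casq2 were lowest in isoproterenol library 98, whereas Ryr2 and Adrb1 were lowest in control library 95. These are descriptions of single libraries, and what sets them apart was not tested.

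Levels were compared between genes only per kilobase of gene model. On that scale the order was Pln, Atp2a2, Casq2, Ryr2, Adrb1 in 9 of 11 libraries. In the other 2, libraries 78 and 113, Adrb1 stood above Ryr2, at 1.75 against 1.61 and 14.4 against 14.2 CPM per kilobase. The order of these neighbours thus varied between libraries, and a difference between them was not tested. Pln exceeded Atp2a2 in all 11 libraries, and Atp2a2 exceeded Casq2 in all 11. The lengths of Ryr2, Casq2 and Adrb1 are multiples of 3, as were 43.9% of all lengths found, so some models may hold coding sequence alone and the order depends on these models.

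Most of the variation in the calcium genes lay within groups, except for Pln. Differences between the 4 group means took up 6.75% of the variance of log2 CPM for Atp2a2, 9.56% for Ryr2, 11.9% for Adrb1 and 18.9% for Casq2, beside a median of 31.5% over all tested genes. For Pln the share was 51.5%. The SD within groups was 2.15 on the log2 scale for Ryr2 and 2.03 for Adrb1, which were at percentiles 99.2 and 98.7 of tested genes. It was 1.01 for Atp2a2, 0.841 for Casq2 and 0.403 for Pln, beside a median of 0.549. That spread sets how small a difference between groups could be seen, and it was smallest for Pln.

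Isoproterenol against control asks what the model of heart failure did to the calcium genes. No difference was detectable in any of the 5. The edgeR log2 fold change was 0.02 (SE 0.771) for Atp2a2, -0.14 (SE 0.446) for Pln, 0.18 (SE 1.39) for Ryr2, -0.25 (SE 0.632) for Casq2 and -0.03 (SE 1.29) for Adrb1. Their median was -0.03, beside 0.07 over all tested genes. The 95% interval of the Adrb1 value ran from -2.89 to 2.83, so changes of several fold in either direction lie inside it. With 2 control libraries that differed from each other by 56.7-fold in Adrb1, 0 of 5 genes had groups that did not overlap, where 13.4% of tested genes had such groups in either direction. At an adjusted p under 0.05, edgeR called 0% of tested genes in this comparison. It also called 0% in each of the 5 other comparisons and in the joint test of all 4 groups. The unadjusted p was under 0.05 for 780 genes in this comparison and for 762 in the joint test. DESeq2 called 2 and 118 genes there and limma-voom 0 and 0. In the fit of 7 libraries, with library 115 as the lone control and a spread taken only from the other groups, the values were -0.15 (SE 0.284) for Atp2a2, 0.15 (SE 0.322) for Pln, -0.27 (SE 0.243) for Ryr2, -0.13 (SE 0.262) for Casq2 and -0.46 (SE 0.3001) for Adrb1, and the adjusted p was 1 for each. In the joint test the adjusted p was 0.914 for Pln and between 0.984 and 0.9997 for the other 4.

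Canagliflozin against isoproterenol compares isoproterenol-treated groups with and without the drug. Pln was lower in the canagliflozin group, by 0.76 on the log2 scale (value -0.76, SE 0.402, 95% interval -1.65 to 0.14), and the adjusted p of edgeR's quasi-likelihood test was 0.999 (unadjusted 0.0883). Pln was lower in all 3 canagliflozin libraries than in isoproterenol libraries 79 and 119, and higher than in library 98. The log2 fold change was -0.47 (SE 0.691) for Atp2a2, -0.15 (SE 1.23) for Ryr2, -0.12 (SE 0.569) for Casq2 and -0.21 (SE 1.15) for Adrb1. The 5 values were all below 0 in edgeR, with a median of -0.21 beside -0.01 over all tested genes, but in limma-voom Casq2 (0.19) and Adrb1 (0.21) were above 0, and without library 78 so was Ryr2 (0.36). The groups overlapped in 5 of 5 genes, where 9.48% of tested genes did not overlap. edgeR had 495 genes at an unadjusted p under 0.05 here, DESeq2 called 2 and limma-voom 0.

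The same comparison without libraries 98 and 78, in the fit of 7 libraries, gave larger differences in the pump pair. Library 98 was the lowest isoproterenol library in both genes, so its removal raised that group's mean and narrowed its spread. The intervals and p-values of this fit do not allow for that choice. Pln differed by -1.07 (SE 0.264, 95% interval -1.67 to -0.47), with an unadjusted p of 0.00285 and an adjusted p of 0.0761 in edgeR. Atp2a2 differed by -0.78 (SE 0.234, 95% interval -1.31 to -0.25), with an unadjusted p of 0.00878 and an adjusted p of 0.106. In levels, the 2 canagliflozin libraries held 3233 and 3549.9 CPM of Atp2a2 against 5469 and 6098, and 1998 and 2179 CPM of Pln against 4022 and 4699. Neither gene passed the threshold. Both had an unadjusted p under 0.05 with a lower level, 2 of 5 members beside 11.3% of the 15323 genes tested in this fit. The values were -0.40 (SE 0.215) for Casq2, -0.30 (SE 0.249) for Adrb1 and -0.17 (SE 0.201) for Ryr2. The canagliflozin libraries lay below the isoproterenol libraries without overlap for Atp2a2, Pln and Casq2. That is 3 of 5 members, where 26.4% of 14979 genes did so. These levels were scaled over all 11 libraries and did not come from this fit. edgeR called 0.0196% of genes in this fit, 3 genes and no member. Canagliflozin libraries 133 and 143 also had the highest length slopes of the 11 (0.128 and 0.239, a measure of how long genes compare with short ones in a library). With the length trend as an offset in the same fit, the differences were -1.07 for Pln, -1.06 for Atp2a2 and -0.64 for Ryr2.

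Exercise against isoproterenol gave no detectable difference in the 5 genes. The log2 fold changes were 0.09 (SE 0.689) for Atp2a2, -0.08 (SE 0.400) for Pln, -0.07 (SE 1.23) for Ryr2, 0.45 (SE 0.570) for Casq2 and 0.31 (SE 1.15) for Adrb1. Their median was 0.09, beside -0.01 over all tested genes, with an unadjusted p under 0.05 for 222 genes and no call by DESeq2 or limma-voom. The groups overlapped in 5 of 5 genes, where 8.61% of tested genes did not overlap. In the fit of 7 libraries the values were -0.17 (SE 0.233) for Atp2a2, -0.28 (SE 0.262) for Pln, -0.15 (SE 0.201) for Ryr2, 0.08 (SE 0.215) for Casq2 and 0.22 (SE 0.248) for Adrb1. For Ryr2 the interval without the 4 libraries was -0.60 to 0.31, against -2.81 to 2.67 with them. edgeR called 0.0131% of genes in that fit, and no member among them.

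Exercise against canagliflozin, the comparison between the treated arms, had all 5 values above 0, except that Ryr2 was at -0.43 without library 78. The log2 fold change was 0.67 (SE 0.402) for Pln, 0.57 (SE 0.570) for Casq2, 0.56 (SE 0.691) for Atp2a2, 0.52 (SE 1.15) for Adrb1 and 0.08 (SE 1.23) for Ryr2. Their median was 0.56, beside -0.04 over all tested genes, and the adjusted p from edgeR was 0.999 for each (363 genes at an unadjusted p under 0.05, 1 called by DESeq2 and 0 by limma-voom). Pln and Casq2 were higher in all 3 exercise libraries than in all 3 canagliflozin libraries. These are 2 of 5 members, where 6.55% of tested genes were higher without overlap. In the fit of 7 libraries Pln differed by 0.79 (SE 0.263, adjusted p 0.140), Atp2a2 by 0.61 (SE 0.234, adjusted p 0.172), Adrb1 by 0.52 (SE 0.248), Casq2 by 0.48 (SE 0.215) and Ryr2 by 0.02 (SE 0.201). Pln and Atp2a2 had an unadjusted p under 0.05 there, 2 of 5 members beside 11.9% of genes. All members but Ryr2 were higher without overlap in these libraries, 4 of 5, where 28.3% of 14979 genes were. These levels were scaled over all 11 libraries and did not come from the fit of 7. edgeR called 0.00653% of genes, which is 1 gene and no member.

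The comparisons with the control rest on libraries 95 and 115, which differed widely, and they share these libraries with the first comparison. Canagliflozin against control gave -0.90 for Pln (SE 0.442, 95% interval -1.88 to 0.08, unadjusted p 0.0688, adjusted p 0.369 in edgeR). It gave -0.45 (SE 0.764) for Atp2a2, -0.37 (SE 0.631) for Casq2, -0.24 (SE 1.28) for Adrb1 and 0.03 (SE 1.38) for Ryr2, with a median of -0.37 beside 0.08 over all tested genes. Pln was the 1 member of 5 that was lower without overlap, at 1998 to 2179 CPM against 3883 and 3953, where 10.8% of tested genes were. In this comparison 2162 genes had an unadjusted p under 0.05, DESeq2 called 240 genes and limma-voom 0. Without the 4 libraries, against the lone control library 115, Atp2a2 differed by -0.93 (adjusted p 0.182), Pln by -0.93 (adjusted p 0.197) and Adrb1 by -0.75 (adjusted p 0.241). These 3 of 5 members had an unadjusted p under 0.05 with a lower level, beside 9.62% of genes, and edgeR called 0.0131%. These p-values set the canagliflozin libraries against 1 library and hold no spread between controls. Exercise against control gave 0.11 (SE 0.773) for Atp2a2, -0.22 (SE 0.445) for Pln, 0.12 (SE 1.38) for Ryr2, 0.20 (SE 0.639) for Casq2 and 0.29 (SE 1.297) for Adrb1. Their median was 0.12 beside 0.06 over all genes, 727 genes had an unadjusted p under 0.05, DESeq2 called 11 and limma-voom 0. The groups overlapped in 5 of 5 genes, where 17.4% of tested genes did not. In the fit of 7 libraries, again against library 115 alone, the values were -0.32 (SE 0.282) for Atp2a2, -0.13 (SE 0.319) for Pln, -0.41 (SE 0.242) for Ryr2, -0.056 (SE 0.263) for Casq2 and -0.24 (SE 0.301) for Adrb1. The direction thus turned for 4 of the 5 genes, all but Pln, and no adjusted p was under 0.05.

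**Figure D2:**
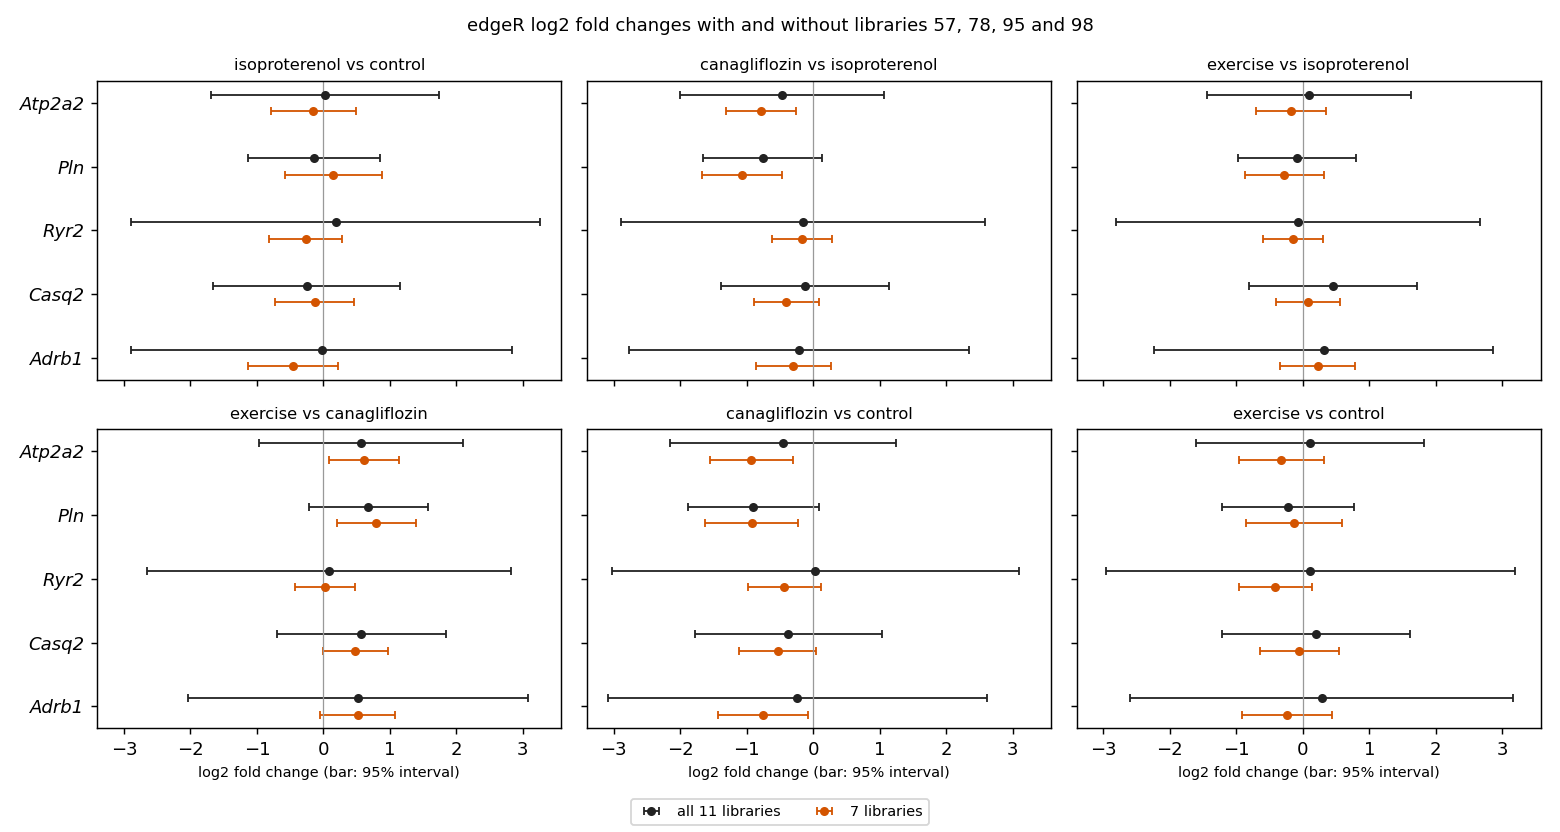
Log2 fold change of each gene in the 6 comparisons from edgeR, with bars for 95% intervals; black is the fit of all 11 libraries and orange the fit without libraries 57, 78, 95 and 98. The orange intervals are narrower, but the libraries left out were mostly the lowest of their group, and the intervals do not allow for that choice. For canagliflozin against isoproterenol those of Atp2a2 (-1.31 to -0.25) and Pln (-1.67 to -0.47) lie below 0, with adjusted p of 0.106 and 0.0761 in edgeR.

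The ratio of Pln to Atp2a2, taken from the counts of the same library, needs no scaling between libraries. Per gene length it was 6.97 in control library 95 and 1.93 in control library 115. It was 2.43 (library 79), 6.70 (library 98) and 2.32 (library 119) in the isoproterenol group. It was 3.04 (library 78), 1.77 (library 133) and 2.12 (library 143) in the canagliflozin group and 3.00 (library 57), 1.96 (library 103) and 2.41 (library 113) in the exercise group. The 4 libraries that stood apart held the 4 highest ratios, from 3.00 to 6.97, and the other 7 lay between 1.77 and 2.43. In raw counts the ratio was 0.563 to 2.21, so Pln had more counts than Atp2a2 only in libraries 95 and 98.

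Group means of the ratio per length were 4.45 ± 3.56 (SD, n = 2) in the control, 3.81 ± 2.50 (n = 3) in the isoproterenol, 2.31 ± 0.656 (n = 3) in the canagliflozin and 2.46 ± 0.525 (n = 3) in the exercise group. Differences between groups took up 20.1% of the variance of the log2 ratio, with a 1-sided p of 0.659 by exact permutation (92400 assignments of libraries to groups). The log2 ratio differed by -0.13 between isoproterenol and control, -0.57 between canagliflozin and isoproterenol and -0.47 between exercise and isoproterenol. It differed by 0.10 between exercise and canagliflozin, -0.70 between canagliflozin and control and -0.60 between exercise and control. In 2-sided exact permutation tests of these 6 differences p was 0.4 to 0.9 and the adjusted p was 0.9 in each. With 3 libraries against 3, or 2 against 3, the smallest p is 0.1, so no pair could have passed 0.05. Without the 4 libraries the same differences were 0.29, -0.29, -0.13, 0.16, 0.00 and 0.17. The lower ratio of canagliflozin and exercise against control was therefore not present among the other 7 libraries, and the direction turned for isoproterenol and exercise against control. In canagliflozin libraries 133 and 143 Pln and Atp2a2 were both lower than in isoproterenol libraries 79 and 119, and their ratio was 1.77 and 2.12 against 2.43 and 2.32.

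**Figure D3:**
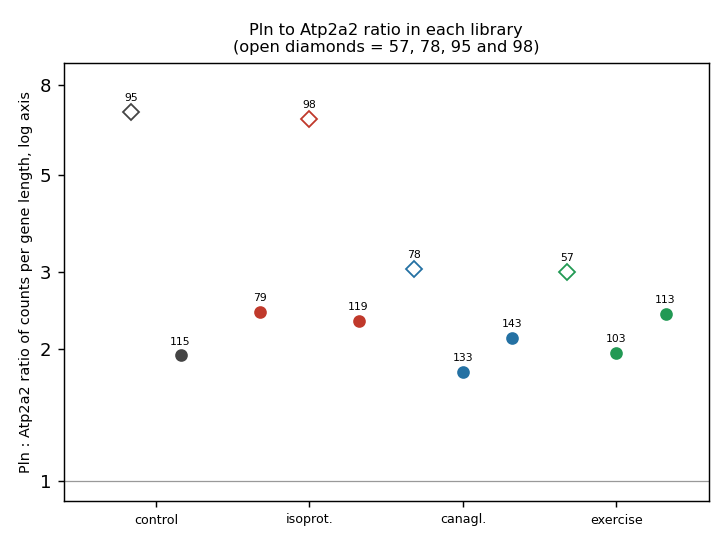
Ratio of Pln to Atp2a2 counts per gene length in each library, on a log axis, by group; points are libraries with their numbers and open diamonds are libraries 57, 78, 95 and 98. The diamonds lie at 3.00 to 6.97, above every filled circle (1.77 to 2.43).

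The other genes were also set against the pump gene of the same library. Ryr2 had 37.5 to 74.0 counts per 1000 Atp2a2 counts in the 7 libraries, with both ends of that range in treated groups (exercise library 113 and canagliflozin library 143). It had 3.61 in library 95, 10.8 in library 78, 15.5 in library 57 and 26.3 in library 98. The channel gene was low relative to the pump gene in each of the 4. Casq2 behaved otherwise, with 115 to 173 counts per 1000 in the 7 libraries and 139.5 to 260.1 in the 4, highest in library 95. Adrb1 had 2.05 to 4.02 counts per 1000 in the 7 and 0.204 to 1.497 in the 4.

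Counts of long and short genes did not keep the same proportion in all libraries, which bears on genes whose models run from 1401 to 14817 bases. The length slope of a library is the slope of its log2 CPM, relative to the mean of all libraries, on log2 gene model length, made without the 5 genes. It was -0.317 in library 95, between -0.0716 and -0.0272 in libraries 57, 78 and 98, and 0.0765, 0.128 and 0.239 in libraries 119, 133 and 143. The other 4 libraries were between -0.00356 and 0.0108. A correlation over all 11 libraries was planned. Because the libraries were divided into 2 sets, it is not read here and is given at the end. Correlations within the set of 7 were added after the data had been seen. Within the set of 7, Pearson's r with the slope was -0.856 for Atp2a2 (Spearman's rho -0.571), -0.761 for Pln (rho -0.643), -0.914 for Casq2 (rho -0.607), -0.476 for Adrb1 (rho -0.429) and -0.154 for Ryr2 (rho 0.25). By exact permutation, adjusted over the 5 genes, p was 0.0451 for Atp2a2 and Casq2, 0.0665 for Pln, 0.360 for Adrb1 and 0.725 for Ryr2, and for rho it was 0.333 to 0.595. The 2 highest slopes of that set belong to its canagliflozin libraries, 133 and 143, so slope and treatment cannot be told apart there, and no correlation was computed over the 5 libraries that remain without them. All 5 genes had an r below 0, from -0.914 for Casq2 to -0.154 for Ryr2. Adrb1, whose model of 1401 bases fits a coding sequence rather than a whole transcript, was low in the same 4 libraries as Ryr2. The part of gene length in these levels was not tested beyond the fits with the length trend as an offset.

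**Figure D4:**
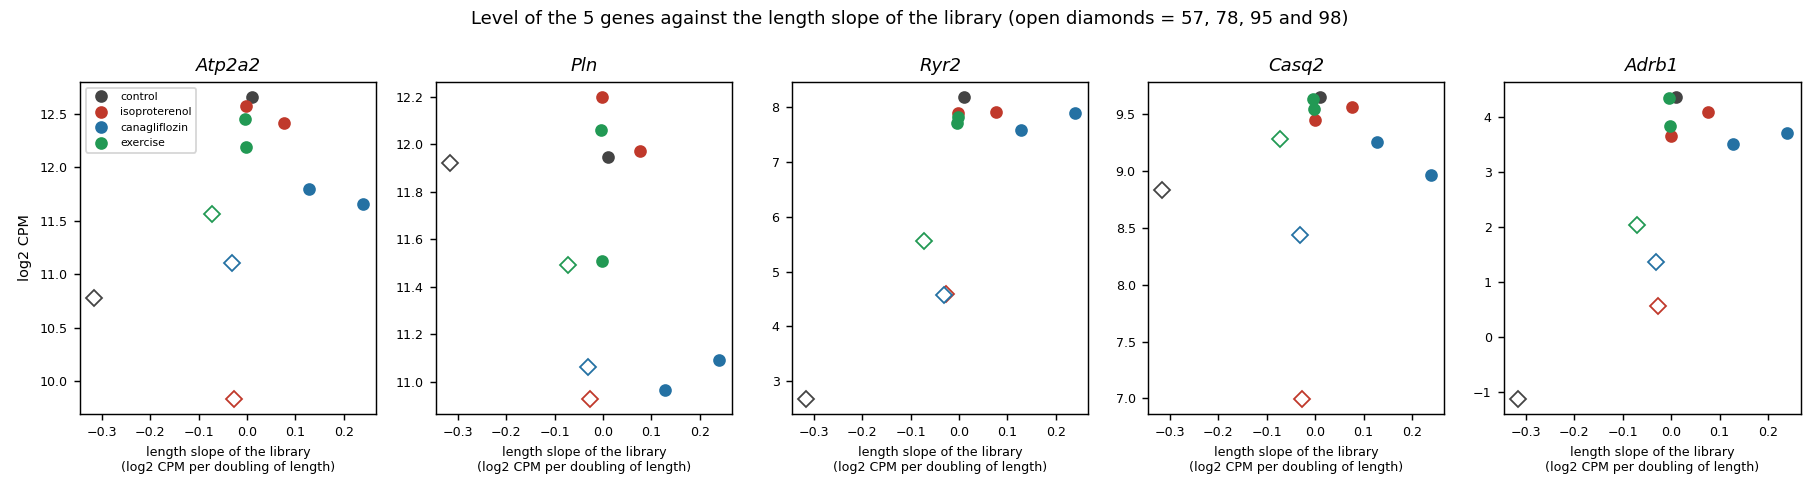
Level of each gene (log2 CPM) against the length slope of the library (log2 CPM per doubling of gene model length); each point is 1 library, colours are groups and open diamonds are libraries 57, 78, 95 and 98. Control library 95 has the lowest slope (-0.317) and the lowest Ryr2 and Adrb1, and the canagliflozin libraries 133 and 143 have the highest slopes (0.128 and 0.239).

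Across the 11 libraries, log2 levels were most alike between Ryr2 and Adrb1, and next between Atp2a2 and Casq2. As a description over libraries that share the split of 4 and 7, Pearson's r was 0.985 between Ryr2 and Adrb1, and Adrb1 was 12th of 14978 other genes in likeness to Ryr2. It was 0.926 between Atp2a2 and Casq2. Atp2a2 was 54th of 14978 in likeness to Casq2, and Casq2 was 258th in likeness to Atp2a2. These were not separate pairs, since Atp2a2 also had r of 0.860 with Adrb1 and 0.829 with Ryr2. Casq2 had r of 0.678 with Adrb1 and 0.638 with Ryr2. Pln had r of 0.632 to Atp2a2 and 0.632 to Casq2, close to that of Casq2 with Ryr2. It had 0.266 to Adrb1 and 0.241 to Ryr2, the lowest values. Within the 7 libraries the order differed, with 0.949 between Pln and Atp2a2, 0.881 between Atp2a2 and Casq2 and 0.493 between Ryr2 and Adrb1. The gene most like Atp2a2 over the 11 libraries was ENSRNOG00000007895 (r 0.994, and 0.979 in the 7), and the gene most like Pln was ENSRNOG00000007829 (r 0.965, and 0.982 in the 7). The table pairs neither ID with a symbol.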

How the data were processed

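RNA of cardiac tissue was sequenced in 11 libraries. Per the submitters' processing notes, CASAVA 1.8 and TopHat2 2.0.6 were used. How reads were counted, with which strand setting, genome build and annotation, is not given in the sources used. Reads shared with overlapping genes or near-identical copies cannot be told apart. The authors deposited raw counts per gene. The same deposited table holds FPKM, counts scaled by gene model length and library total, used here only for gene model lengths, as the ratio of count to FPKM. Each column was matched to its library by the number in its label.

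CPM is the count scaled to a common TMM-adjusted library total, and log2 CPM has a prior count of 2. Groups were compared with edgeR 4.0.16 under R 4.3.3, with TMM factors, filterByExpr and a robust quasi-likelihood model of the 4 group means over all 11 libraries. P-values were adjusted by the Benjamini-Hochberg method over 14979 genes, and calls were made at an adjusted p under 0.05. Alternatives were DESeq2 1.42.0, limma-voom (limma 3.58.1), other size factors and filters, fits of the compared groups alone, the length trend as an offset and leaving out each library. Leaving out libraries 57, 78, 95 and 98, that fit with the length offset, correlations within the other 7 libraries and the deviation of genes of 10000 bases or more were added after the data had been seen. The edgeR fit was tested on simulated data with the same spread for every gene, below the real median, and no split among the libraries. edgeR's estimate of the spread, as a coefficient of variation, was 0.961 for Ryr2 and 0.938 for Adrb1, beside a median of 0.393. Recovery of genes as variable as these was not tested. Pairs of libraries within a group differed beyond counting noise (chi-square per degree of freedom 30.6 to 382). Intervals on counts are at 95% and cover counting error only.

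The 5 genes, the gene lists and the tests were chosen with earlier results of these data known. The rule named the 5 genes in every comparison and, by ID, the gene most like Atp2a2 and like Pln by Pearson correlation of log2 CPM. Lists of further calcium and beta-adrenergic genes and of cell type markers were set too, but 0 Ensembl IDs matched a symbol in the annotation table, so they were not analysed here. Promoter windows were matched by symbol for 5 of 5 genes in RefSeq (GRCr8). Permutation tests used SciPy 1.17.1, and figures matplotlib 3.10.9.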

Additional observations from a re-analysis of the deposited data

How the results depend on the processing

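No gene of the 5 was called in any comparison under any of the 21 alternatives, and the smallest adjusted p was 0.0707 (Pln, canagliflozin against isoproterenol, without libraries 57, 78, 95 and 98 and with the length offset). DESeq2 gave no adjusted p for Adrb1 in isoproterenol against control and in exercise against control, so this gene could not be called there. Of 630 log2 fold changes under these alternatives, 79 changed sign, in 22 of 30 results, and the other 8 results kept their sign throughout. The cause of these changes was not tested. No paired analysis was possible because the groups share no library number. Over comparisons with the control, the length offset moved the median of all genes from 0.07 to -0.08 (isoproterenol), from 0.08 to -0.13 (canagliflozin) and from 0.06 to -0.09 (exercise). The 4-group test of the ratio has no version as a difference of fitted log2 fold changes, and the joint test none with only the groups compared. Precision is limited by the 2 to 3 libraries in a group, and for Adrb1 and Ryr2 in library 95 also by counts.

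Without libraries 57, 78, 95 and 98, log2 fold changes against control turned to -0.15 (Atp2a2), 0.15 (Pln) and -0.27 (Ryr2) for isoproterenol, to -0.43 (Ryr2) for canagliflozin and to -0.32 (Atp2a2), -0.41 (Ryr2), -0.056 (Casq2) and -0.24 (Adrb1) for exercise, and to -0.17 (Atp2a2) for exercise against isoproterenol. The log2 ratio of Pln to Atp2a2 against control turned to 0.29 (isoproterenol), 0.00469 (canagliflozin) and 0.17 (exercise). With the length offset in the same fit, the values were -0.14 (Atp2a2), 0.14 (Pln) and -0.25 (Ryr2) for isoproterenol against control, -0.89 (Ryr2) for canagliflozin against control, -0.23 (Atp2a2), -0.23 (Ryr2), -0.086 (Casq2) and -0.28 (Adrb1) for exercise against control, and -0.088 (Atp2a2) and 0.022 (Ryr2) for exercise against isoproterenol. With the length offset and all libraries, they were -0.11 (Atp2a2, isoproterenol against control), -0.43 (Ryr2, canagliflozin against control), -0.0145 (Casq2, exercise against control) and 0.11 (Ryr2, exercise against isoproterenol), and the ratio for exercise against canagliflozin was -0.23. With limma-voom, values turned to -0.036 (Atp2a2) and 0.69 (Adrb1) for isoproterenol against control, 0.90 (Adrb1) for canagliflozin against control, 0.19 (Casq2) and 0.21 (Adrb1) for canagliflozin against isoproterenol and 0.21 (Ryr2) for exercise against isoproterenol. With only the groups compared, Ryr2 in canagliflozin against control was -0.00512.

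The count of genes called moved from 0 with DESeq2 to 2 (isoproterenol against control), 2 (canagliflozin against isoproterenol), 1 (exercise against canagliflozin), 240 (canagliflozin against control), 11 (exercise against control) and 118 (joint test). Without the 4 libraries it was 3 (canagliflozin against isoproterenol), 2 (exercise against isoproterenol), 1 (exercise against canagliflozin), 2 (canagliflozin against control) and 3 (joint test), and with the length offset too 9, 0, 1, 2 and 3. Leaving out 1 library at a time, counts ran from 0 to 2688 (isoproterenol against control), 0 to 3900 (canagliflozin against control), 0 to 2766 (exercise against control) and 0 to 1332 (joint test). Each upper end was without control library 115, where library 95, assumed to vary like the other groups, was the lone control.

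Leaving out 1 library at a time, fold changes that changed sign had these ranges. For isoproterenol against control they were -0.62 to 1.26 (Atp2a2), -0.39 to 0.15 (Pln), -0.78 to 4.75 (Ryr2), -0.60 to 0.23 (Casq2) and -0.98 to 4.84 (Adrb1). For canagliflozin against control they were -1.105 to 0.79 (Atp2a2), -0.94 to 4.60 (Ryr2), -0.73 to 0.11 (Casq2) and -1.19 to 4.63 (Adrb1). For exercise against control they were -0.53 to 1.35 (Atp2a2), -0.85 to 4.68 (Ryr2), -0.14 to 0.68 (Casq2) and -0.66 to 5.15 (Adrb1). In these 3 comparisons the lower end was without library 95 and the upper without library 115, except Pln, where it was without library 79 and without library 98. For canagliflozin against isoproterenol they were -0.66 to 0.36 (Ryr2), -0.58 to 0.21 (Casq2) and -0.73 to 0.34 (Adrb1). For exercise against isoproterenol they were -0.38 to 0.48 (Atp2a2), -0.38 to 0.18 (Pln), -0.58 to 0.37 (Ryr2), -0.0151 to 0.79 (Casq2) and -0.21 to 0.87 (Adrb1), and for exercise against canagliflozin -0.43 to 0.57 (Ryr2). The log2 ratio of Pln to Atp2a2 ran from -1.06 to 0.79, -1.63 to 0.22 and -1.53 to 0.32 against control (isoproterenol, canagliflozin, exercise), from -0.74 to 0.030 for exercise against isoproterenol and from -0.071 to 0.32 for exercise against canagliflozin.

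Pearson's r of level with length slope was also computed over all 11 libraries, which were divided into 2 sets. It was 0.766 for Ryr2 (rho 0.782) and 0.736 for Adrb1 (rho 0.6). The adjusted permutation p was 0.0104 and 0.0223 (0.0333 and 0.142 for rho). Without libraries 95 and 143, the 2 farthest from the median slope, r was 0.566 and 0.501 (adjusted p 0.411 for both). Leaving out 1 library at a time, r was 0.515 to 0.797 for Ryr2 and 0.421 to 0.791 for Adrb1. Both low ends were without library 95 (adjusted p 0.524 and 0.547) and both high ends without library 143. Without library 95, rho was 0.709 for Ryr2 and 0.467 for Adrb1 (adjusted permutation p 0.138 and 0.387). Pearson's r of both genes thus fell most without library 95, and rho fell less. With the deviation of long genes in place of the slope, r was 0.508 and 0.431 (adjusted p 0.290 and 0.315). For Atp2a2, Pln and Casq2 r over all 11 was 0.362, -0.352 and 0.164 (adjusted p 0.394, 0.394 and 0.525). Within the 7 libraries the sign turned for Atp2a2 (-0.856), Ryr2 (-0.154), Casq2 (-0.914) and Adrb1 (-0.476), and with long genes for Casq2 (-0.0894).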
